A study of Mus musculus with 5 samples.

Results

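The genes described are 9 members of the ETS transcription factor family, Elf1, Elf2, Elk3, Elk4, Erf, Erg, Etv5, Spi1 and Spib, in IL-2-activated NK cells (NKC). They are 9 of 22350 protein-coding genes on the 19 autosomes and chromosome X, and were taken by name and family, with no measured value in the rule. The choice was made with earlier results of these data known. At each gene, Runx3-bound and H3K4me1-marked regions were those overlapping the gene or its 20 kb flanks by at least 1 bp, with genes taken from GENCODE M1 on mm9. The cells were splenic NKC of ICR mice, enriched by negative selection and grown for 7 days in 1000 units/ml of human IL-2, after which the culture was NKp46+. Runx3 was immunoprecipitated in 2 libraries and H3K4me1 in 1, with 2 libraries of non-immune rabbit serum (NIS) as control, each from the same kind of cells and with no other treatment or genotype. The deposited lists hold 11676 Runx3 peaks, called on the joined reads of both libraries, and 34204 H3K4me1 peaks, as positions only, so no peak has a height, a depth or a replicate error and the values below are counts and distances in 1 condition.

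ETS factors share a DNA-binding domain that recognizes a GGAA core and are known to bind next to Runx proteins at many lymphoid enhancers, where contact between the proteins can strengthen binding. Runx3 is the main Runx protein of cytotoxic lymphocytes. H3K4me1 is a histone mark that is enriched at enhancers, whether these are active or only primed, and it tends to be low right at the start site of an active gene. A peak of either kind is not a measure of expression, and the transcript levels of the 9 genes were not analysed here.

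The 9 genes held 15 Runx3 peaks and 47 H3K4me1 peaks. A Runx3 peak was present at 6 of the 9 genes, against 41.1% of all protein-coding genes by the same rule, and an H3K4me1 peak at 8 of 9, against 51.1%. A Runx3 peak that overlapped an H3K4me1 peak was present at 3 of 9 (Erf, Erg and Spi1), against 20.5%, and Runx3 peaks without such an overlap at another 3 (Elf1, Elk4 and Spib), against 20.6%. Windows of the 9 genes were long, with a median of 98.4 kb against 55.4 kb. Among the 2862 genes with a window at least as long as that of Elf2, a Runx3 peak was present at 50.7% and an H3K4me1 peak at 56.6%. Erf had 4 Runx3 peaks, Elf1 and Spi1 had 3 each, Elk4 and Erg 2 each and Spib 1, while Elf2, Elk3 and Etv5 had none. The order of the genes by H3K4me1 was different, with 16 peaks at Elk3, 8 at Erg, 6 at Elf1, 5 at Spi1, 4 at Elk4 and at Erf, 3 at Spib, 1 at Etv5 and 0 at Elf2. At least 3 Runx3 peaks were found at 7.36% of all genes, and at Elf1, Erf and Spi1 among the 9.

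**Figure D1:**
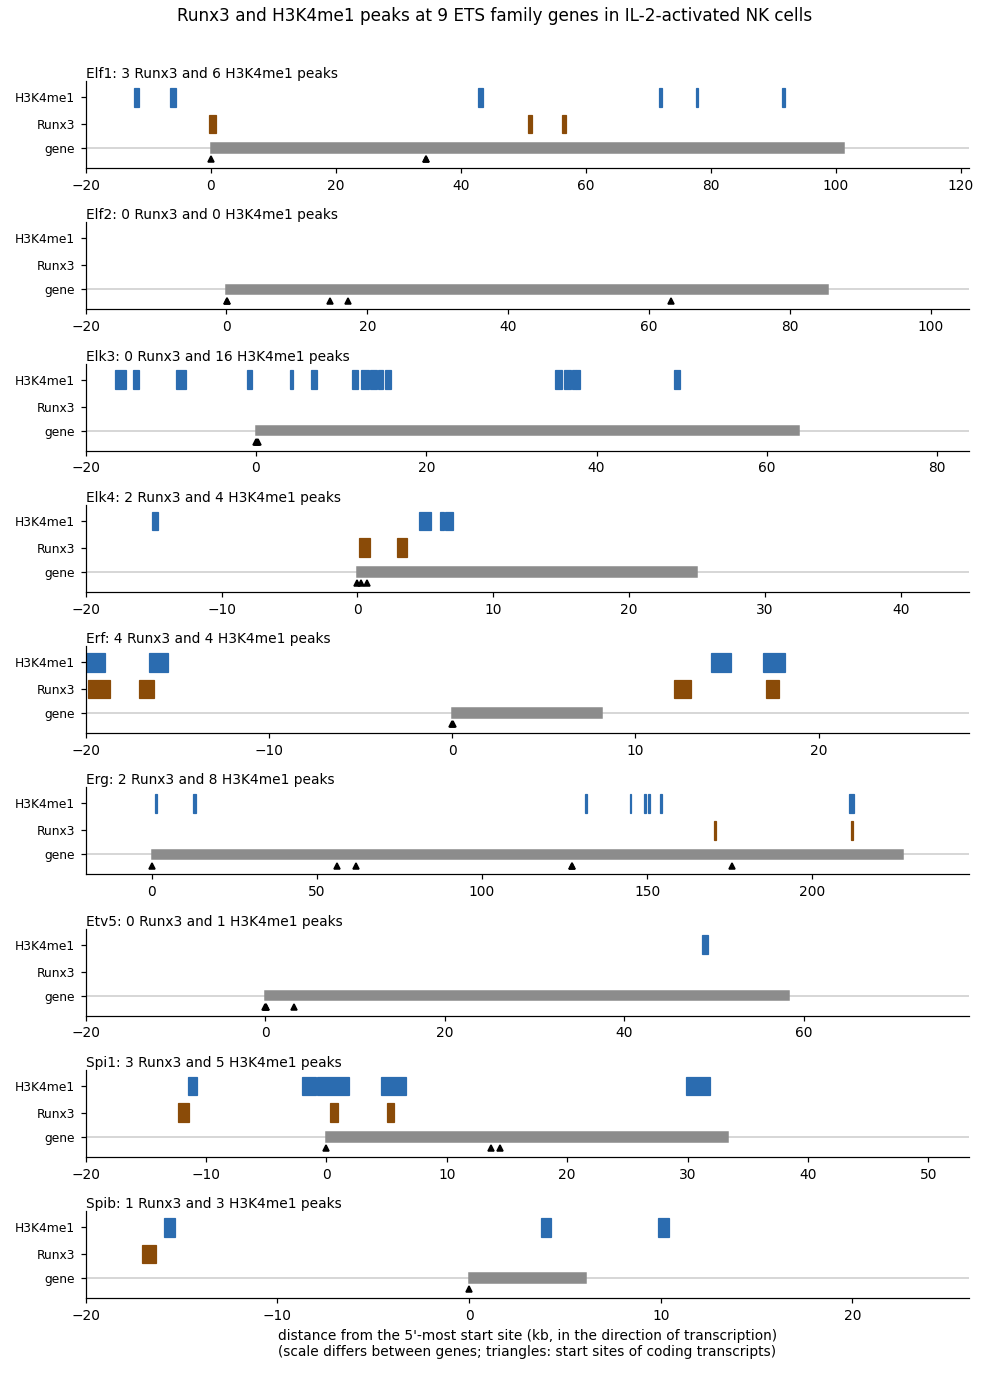
Positions of Runx3 peaks (brown) and H3K4me1 peaks (blue) at each gene (grey bar) and its 20 kb flanks, in kb from the 5′-most start site in the direction of transcription; the x axis is scaled separately for each gene, and triangles mark the start sites of coding transcripts. Elk3 shows 16 H3K4me1 peaks and 0 Runx3 peaks, the 3 Runx3 peaks of Spi1 all touch H3K4me1, and those of Elf1 and Elk4 do not.

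The rule takes in peaks that lie closer to other genes. The nearest start site of a protein-coding gene was that of the member itself for 8 of the 15 Runx3 peaks, which belonged to Elf1, Elk4, Erg and Spi1, and that of a neighbour for the other 7. The 4 peaks of Erf lay nearest to Gsk3a or Cic, the peak of Spib to Pold1, 1 peak of Spi1 to Slc39a13 and 1 peak of Elf1 to Wbp4. Of the 15 peaks, 9 were centred inside a member gene, and these lay in the same 4 genes. The limit of 20 kb also decided some cases. The outermost peak counted was centred 19260 bp upstream of Erf, and the Runx3 peak closest to Etv5, 21139 bp upstream of that gene, was left out.

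Elf1, an activator of many lymphoid genes, had 3 Runx3 peaks and none overlapped H3K4me1. The peak at its 5′-most start site (chromosome 14, 79880712 to 79881857) was 1146 bp wide, covered that start site and was centred 284 bp into the gene, in an exon annotated as UTR, and 210 bp from a start site of Wbp4. It contained 1 RUNX match and no ETS match. A RUNX match is the word TGTGGT or the word TGTGGC or, with C as the third base, the word TGCGGT or the word TGCGGC, and an ETS match is the word AGGAAA or the word AGGAAG or, with C as the first base, the word CGGAAA or the word CGGAAG, each on either strand. The other 2 peaks lay in introns at 79931805 to 79932461 and 79937120 to 79937774, 16640 and 21954 bp downstream of an internal start site. The nearest H3K4me1 peak was 7208 bp from the first and 12523 bp from the second, and 5319 bp from the promoter peak. All 4 H3K4me1 peaks inside Elf1 lay in introns and were 260 to 809 bp wide.

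The intronic pair is printed because its members carry different RUNX variants. The stretches shown here and below are 240 bases of the plus strand of mm9, taken from within the peak, free of annotated exons and with as many RUNX matches as possible, and RUNX matches are in capitals.
Elf1, first intronic peak, chr14:79931965-79932204: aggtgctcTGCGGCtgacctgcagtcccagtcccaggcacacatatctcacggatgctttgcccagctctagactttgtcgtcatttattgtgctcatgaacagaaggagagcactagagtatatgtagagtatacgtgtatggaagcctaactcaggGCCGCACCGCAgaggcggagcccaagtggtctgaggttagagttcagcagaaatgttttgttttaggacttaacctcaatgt
Elf1, second intronic peak, chr14:79937327-79937566: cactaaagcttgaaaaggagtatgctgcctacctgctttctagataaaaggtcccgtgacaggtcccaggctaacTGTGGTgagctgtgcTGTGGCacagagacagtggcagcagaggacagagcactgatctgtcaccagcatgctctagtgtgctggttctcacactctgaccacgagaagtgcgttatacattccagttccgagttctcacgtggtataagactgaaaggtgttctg
The first stretch holds a TGCGGC match at bases 9 to 14 and a pair that shares 1 base, GCCGCA at 159 to 164 and ACCGCA at 164 to 169, which read TGCGGC and TGCGGT on the minus strand. The whole peak held no TGTGGT or TGTGGC. Among the 8925 Runx3 peaks farther than 1 kb from a start site, 230 (2.58%) had matches of the TGCGGT and TGCGGC kinds alone, and among the 2751 nearer ones 584 (21.2%). The second stretch holds TGTGGT at 76 to 81 and TGTGGC at 91 to 96, both on the plus strand. Neither stretch holds an ETS match.

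Elf2, whose protein is a close relative of Elf1 and is known to interact with Runx1, had neither kind of peak in its 125 kb window on chromosome 3 (gene at 51059153 to 51144580). Neither kind was found at 41.6% of all genes, and at 35.5% of the genes with a window at least as long. The closest Runx3 peak lay 82359 bp away, 7154 bp from a start site of Naa15, and the H3K4me1 peak nearest to any coding start site of Elf2 was 24766 bp from it.

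Elk3, a ternary complex factor that acts with serum response factor and can repress its targets, was the most strongly H3K4me1-marked of the 9 by peak number. Its 16 H3K4me1 peaks covered 11697 bp, or 11.3% of the window (gene on chromosome 10, 92710159 to 92773880), and 6.14% of all genes had at least that coverage. None of the 16 overlapped a Runx3 peak. Of these peaks 12 lay in introns of Elk3, and joining peaks closer than 1 kb left 8 domains. A set of 5 peaks formed a domain of 4617 bp (92758009 to 92762625) centred 13563 bp downstream of the start site, and 4 peaks formed one of 2958 bp (92735803 to 92738760) farther into the gene. Upstream, a peak of 501 bp ended 513 bp from the start site at its nearest edge, and 3 more lay centred between 8835 and 15933 bp away. No Runx3 peak was found in the window, and the nearest (92805718 to 92806731) lay 31838 bp upstream of the gene, with the start site of Elk3 still the closest one.

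A Runx3 peak became more frequent with the number of H3K4me1 peaks over all genes. It was present at 14.9% of the 10918 genes with no H3K4me1 peak, at 42.8% of the 3217 genes with 1, at 76.4% of those with 4 to 5, at 86.9% of those with 6 to 8 and at 98.9% of the 361 genes with 16 or more. Only 4 of these 361 genes (1.11%) had no Runx3 peak, and Elk3 was 1 of them. With 16 peaks Elk3 lies at the lower edge of this open class. In the class below, of 9 to 15 H3K4me1 peaks, 53 of 941 genes (5.63%) had no Runx3 peak. The class of 16 or more was set at the count of Elk3 after that count was known, and longer windows can hold more peaks of both kinds, so the share is a description. The absence at Elk3 also holds for 20 kb flanks only. With 50 kb flanks Elk3 had 2 Runx3 peaks, and 6 lay in its domain by the rule of GREAT, the tool the study used to assign genes.

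**Figure D2:**
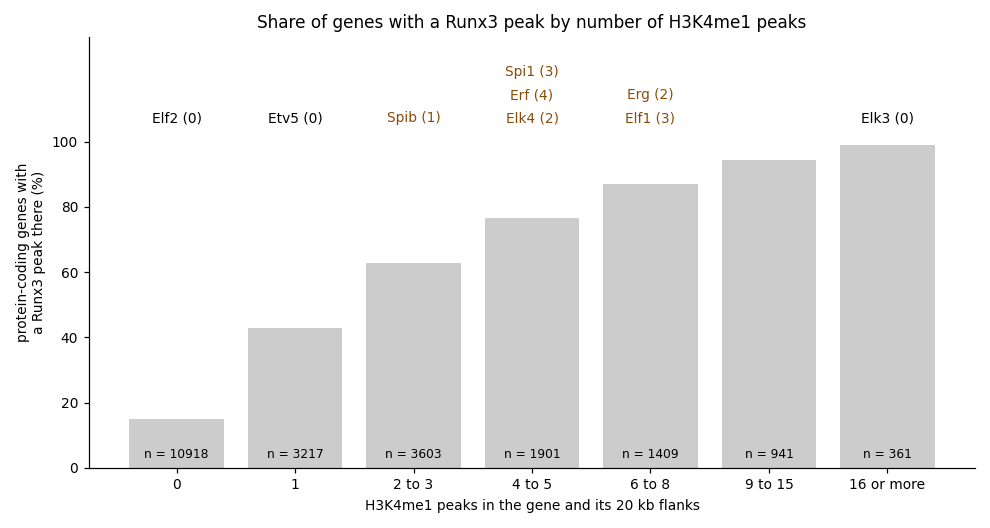
Percentage of protein-coding genes with a Runx3 peak in the gene or its 20 kb flanks (y axis), by the number of H3K4me1 peaks there (x axis); n is the number of genes in a class. Each of the 9 ETS genes is written above its class with its number of Runx3 peaks in brackets, and Elk3 stands above the class in which 98.9% of genes have one.

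Elk4, another ternary complex factor, which is needed for selection of thymocytes, had 2 Runx3 peaks and 4 H3K4me1 peaks, and they did not overlap. The first Runx3 peak (chromosome 1, 133904285 to 133905114) spanned 2 of its coding start sites, was centred 14 bp from an annotated start site and held 4 RUNX and 7 ETS matches. The second (133907097 to 133907862) lay in an intron 2606 bp downstream of the closest start site, with 4 RUNX matches, 5 ETS matches and 1 match to AP-1 (TGAGTCA or TGACTCA). The H3K4me1 peak closest to it began 835 bp beyond its end, and the closest to the promoter peak lay 3583 bp away. The 3 H3K4me1 peaks inside the gene formed a domain of 2495 bp centred 5761 bp from the 5′-most start site, so that Runx3 was at the start of the gene and H3K4me1 farther in. The intronic peak is printed for its adjoining RUNX matches.
Elk4, intronic peak, chr1:133907519-133907758: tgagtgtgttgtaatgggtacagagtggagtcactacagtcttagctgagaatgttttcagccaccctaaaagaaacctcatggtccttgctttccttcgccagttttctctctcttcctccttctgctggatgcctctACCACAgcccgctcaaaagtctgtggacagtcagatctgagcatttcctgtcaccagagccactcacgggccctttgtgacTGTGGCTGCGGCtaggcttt
This stretch holds ACCACA, the minus-strand form of TGTGGT, at bases 140 to 145. Further on TGTGGC at 221 to 226 is followed directly by TGCGGC at 227 to 232, and ETS matches lie at 92 to 97, 115 to 120 and 183 to 188, all on the minus strand.

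Erf encodes a repressor whose activity is shut off by Erk phosphorylation. Its 4 Runx3 peaks on chromosome 7 were the most of any of the 9 genes and a number reached by 3.23% of all genes, but none lay in the gene (26027580 to 26035780), which also held no H3K4me1 peak. A peak of 931 bp (26022725 to 26023655) was centred 320 bp from a start site of Gsk3a, and a peak of 696 bp (26017953 to 26018648) in an intron of Gsk3a lay wholly within an H3K4me1 peak of 1229 bp. The other 2 flanked the start of Cic, centred 249 bp (26052056 to 26052892) and 825 bp (26054433 to 26055647) from a start site of it, and each overlapped H3K4me1. The last was the widest of the 15 at 1215 bp. Each of the Gsk3a peaks fell in the windows of 5 protein-coding genes, and each of the Cic peaks in those of 2. No Runx3 peak was nearest to the start site of Erf, and the closest to it was 12094 bp away.

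Erg, a regulator of hematopoietic stem cells and endothelium, is the longest of the 9 genes (chromosome 16, 95580776 to 95808200), and its 2 Runx3 peaks lay in introns. The peak at 95595789 to 95596456 was inside an H3K4me1 peak of 1544 bp and 36495 bp downstream of the nearest start site, an internal one of Erg. The peak at 95637410 to 95638060 lay 5117 bp upstream of that internal start site, 15700 bp from the nearest H3K4me1 peak, and was the only one of the 15 without a RUNX match. Both peaks of Erg were narrower than the median Runx3 peak (704 bp), and with only peaks at least that wide Erg had 0. RUNX matches are absent from 335 (3.75%) of the Runx3 peaks farther than 1 kb from a start site. The peak without one held 1 ETS match and 1 AP-1 match, and both peaks are printed as the pair with and without RUNX matches; in the second the AP-1 match is in capitals.
Erg, peak inside H3K4me1, chr16:95596069-95596308: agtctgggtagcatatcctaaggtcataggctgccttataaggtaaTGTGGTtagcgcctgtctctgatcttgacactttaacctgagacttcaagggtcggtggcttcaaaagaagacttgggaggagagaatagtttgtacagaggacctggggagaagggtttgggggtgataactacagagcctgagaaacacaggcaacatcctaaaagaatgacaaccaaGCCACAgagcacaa
Erg, peak without a RUNX match, chr16:95637555-95637794: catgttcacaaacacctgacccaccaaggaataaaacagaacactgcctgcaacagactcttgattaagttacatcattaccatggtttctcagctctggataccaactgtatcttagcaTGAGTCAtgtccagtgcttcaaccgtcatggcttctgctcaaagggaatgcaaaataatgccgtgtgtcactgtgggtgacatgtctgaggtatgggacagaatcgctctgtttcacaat
The first holds TGTGGT at bases 47 to 52 and GCCACA at 227 to 232, which reads TGTGGC on the minus strand. All 8 H3K4me1 peaks of the Erg window lay inside the gene, 1 of them centred 1205 bp from the 5′-most start site. The stretch of 115 kb between Erg and the neighbouring ETS gene Ets2 held no Runx3 peak and 2 H3K4me1 peaks.

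Etv5, of the PEA3 group and known for its part in spermatogonial stem cells, had no Runx3 peak and 1 H3K4me1 peak, of 619 bp in an intron (chromosome 16, 22390448 to 22391066). A single H3K4me1 peak or more was present at 51.1% of all genes, and 57.2% of the genes with exactly 1 had no Runx3 peak. The Runx3 peak closest to Etv5 (22460931 to 22461600) lay just outside the window, and the start site of Etv5 was the nearest one to it.

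Spi1, listed as Sfpi1 in GENCODE M1, encodes PU.1, which drives development of myeloid and B cells and is turned down in most T and NK lineage cells. An element upstream of its promoter is known to bind Runx1 in blood progenitors, though no file used here marks its position. All 3 Runx3 peaks in the window of Spi1 (chromosome 2, 90922547 to 90955913) overlapped H3K4me1, and the marked bases made up 11.5% of the window, a share reached by 5.92% of all genes. The annotation starts the gene with a long transcript at 90922547, while other coding transcripts start at 90936253 and 90936937. The peak at 90922866 to 90923477 was centred 625 bp inside the first start site, in an intron of the long transcript, and 13081 and 13765 bp upstream of the others. It was 612 bp wide and lay wholly within an H3K4me1 peak of 2644 bp (90921751 to 90924394), a width reached by 1.19% of all H3K4me1 peaks. The peak at 90927580 to 90928155, of 576 bp, lay 8385 and 9069 bp upstream of those start sites, again wholly within H3K4me1, in a peak of 2012 bp. No Runx3 or H3K4me1 peak was found at the downstream start sites themselves, from which the nearest Runx3 peak was 8098 bp away.

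Both peaks inside the gene are printed, since each lies wholly within a wide H3K4me1 peak.
Spi1, peak 2, chr2:90923052-90923291: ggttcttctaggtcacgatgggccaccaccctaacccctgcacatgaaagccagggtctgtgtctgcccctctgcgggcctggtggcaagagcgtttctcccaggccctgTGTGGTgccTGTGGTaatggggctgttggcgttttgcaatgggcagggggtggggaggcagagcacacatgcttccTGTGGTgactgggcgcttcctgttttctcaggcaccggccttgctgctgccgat
Spi1, peak 3, chr2:90927748-90927987: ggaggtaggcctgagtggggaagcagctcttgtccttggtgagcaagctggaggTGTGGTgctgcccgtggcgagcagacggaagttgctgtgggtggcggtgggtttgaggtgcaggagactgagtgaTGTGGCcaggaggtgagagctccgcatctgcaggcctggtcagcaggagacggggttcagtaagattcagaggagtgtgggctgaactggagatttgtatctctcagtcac
The first stretch holds 3 matches of TGTGGT on the plus strand, at bases 111 to 116, 120 to 125 and 187 to 192, and ETS matches on the minus strand at 182 to 187 and 202 to 207. The ETS match at 182 to 187 shares 1 base with the RUNX match beside it. At least 3 TGTGGT matches were found in 207 (7.52%) of the Runx3 peaks within 1 kb of a start site and in 1989 (22.3%) of the others. The second stretch holds TGTGGT at 55 to 60 and TGTGGC at 130 to 135 with CGGAAG between them, at 80 to 85. The remaining Runx3 peak of the window (90910181 to 90911122) lay 78 bp from a start site of Slc39a13 and shared 69 bp with an H3K4me1 peak.

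Spib, a PU.1 relative of B cells and plasmacytoid dendritic cells, had 1 Runx3 peak in its window, centred 35 bp from a start site of Pold1 (chromosome 7, 51803760 to 51804516) and 16697 bp upstream of Spib. It held 4 RUNX and 3 ETS matches and overlapped no H3K4me1, the nearest being 428 bp away. Of the 3 H3K4me1 peaks 1 lay in Spib (51783190 to 51783679, 490 bp, centred in an exon annotated as UTR), and the other 2 in introns of Mybpc2 and Pold1.

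Markers of other cells were read the same way, because Spi1 and Spib are genes of myeloid and B cells. By the same rule 41.1% of all protein-coding genes had a Runx3 peak and 51.1% an H3K4me1 peak. All 8 NKC markers (Ncr1, Klrb1c, Prf1, Gzmb, Eomes, Tbx21, Il2rb and Klrk1) had Runx3 and H3K4me1 peaks, with 2 to 18 H3K4me1 peaks each. Of 6 myeloid markers, 5 had an H3K4me1 peak and 2 a Runx3 peak. Lyz2 had neither, Mpo and Emr1 had 1 H3K4me1 peak each, Cd14 had 4, Csf1r had 5 with 2 Runx3 peaks and Itgam, which NKC also express, had 17 with 2 Runx3 peaks. Among B cell markers, Ms4a1 had neither kind, Pax5 had 1 H3K4me1 peak and Cd22 had 3, both without a Runx3 peak, and Cd79a had 4 with 2 Runx3 peaks. Of 5 T cell markers (Cd3e, Cd3g, Cd4, Cd8a and Cd5), 4 had both kinds, with the same counts at Cd3e and Cd3g. By the study's methods NKC were, beside the negative selection, sorted for DX5, and nearly all cells were NKp46+ after culture. The part of other cells in the peaks at Spi1 was not tested.

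Over all 15 Runx3 peaks, the share that overlapped H3K4me1 was 46.7% (7 peaks, 95% Wilson interval 24.8 to 69.9), against 47.8% of the 9603 Runx3 peaks in windows of protein-coding genes. The interval covers counting error only. The 7 peaks were 4 of the 8 centred within 1 kb of a start site and 3 of the other 7. Such promoter peaks made up 53.3% of the 15 (30.1 to 75.2) and 28.6% of the 9603, and 6 of the 8 were nearest to a neighbour's start site. A RUNX match was present in 14 of 15, against 96% of all Runx3 peaks and 69.4% of windows of the same widths 10 kb to either side. An ETS match was present in 14 of 15, against 91.4% and 84.6%. In the central 200 bp, RUNX matches were found in 66.7% of the 15, 77.0% of all Runx3 peaks and 29.1% of the windows, and ETS matches in 53.3%, 58.8% and 42.2%. AP-1 matches were found in 4 of 15, against 26.2% of all Runx3 peaks. An ETS and a RUNX match up to 50 bp apart were found in 7 of 15, against 59.2% of all Runx3 peaks and 26.2% of the windows. In each of these motif comparisons the Wilson interval of the 15 peaks took in the share over all Runx3 peaks. For ETS matches, in the whole peak or its centre, and for the ETS and RUNX pairs it also took in the share over the windows. The same held for AP-1 matches, found in 12.4% of the windows, but not for RUNX matches. So few peaks cannot tell these sets apart where the interval covers both. TGTGGT was found in 6 of 15 (40.0%) and in 75.9% of all Runx3 peaks, and TGTGGC in 12 of 15 (80.0%) and 57.7%. No interval was computed for these variants. The sets also differ in place, with promoter peaks making up 53.3% of the 15 and 23.6% of all Runx3 peaks.

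**Figure D3:**
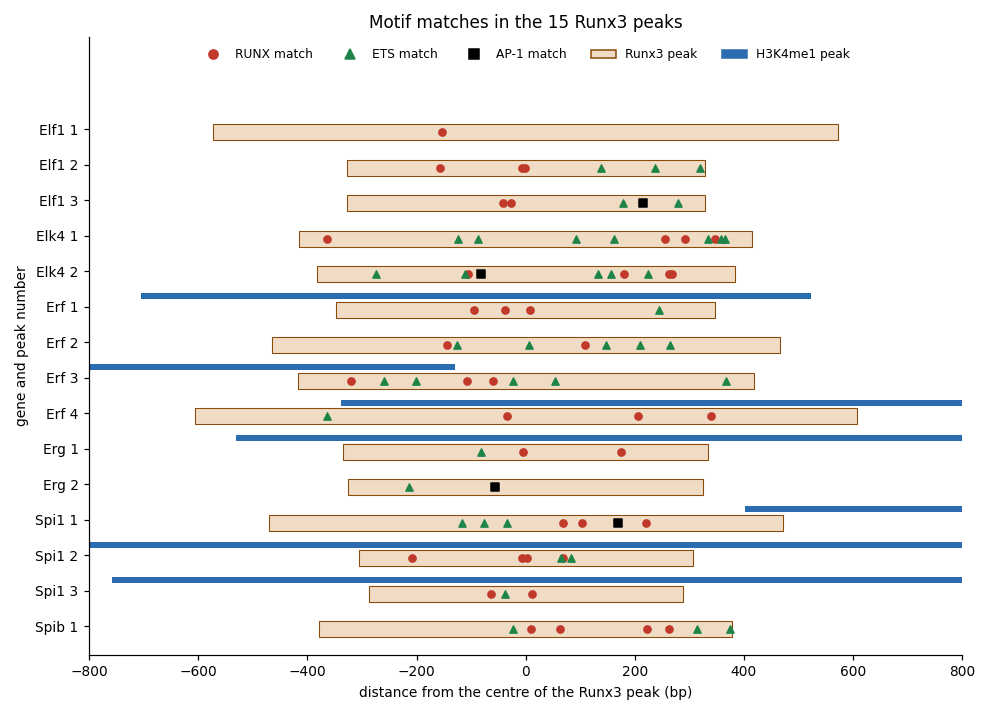
RUNX (red circles), ETS (green triangles) and AP-1 (black squares) matches in the 15 Runx3 peaks, by distance in bp from the peak centre, with peaks numbered along the chromosome; blue bars are H3K4me1 peaks. RUNX matches are absent from the second peak of Erg only, and the blue bars span the whole of peaks 2 and 3 of Spi1, 1 of Erf and 1 of Erg.

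The remaining 17 ETS family genes were counted in the same way. A Runx3 peak was found at 9 of them, an H3K4me1 peak at 10 and neither at 6. Over all protein-coding genes these shares were 41.1%, 51.1% and 41.6%. Fli1 had the most with 7 Runx3 and 29 H3K4me1 peaks, followed by Ets1 with 3 and 17 and Etv3 with 2 and 9. Ets2, Fev, Etv1, Etv4, Elf5, Ehf, Spic and Spdef had no Runx3 peak, and of these only Etv4 and Ets2 had an H3K4me1 peak. The study, which assigned peaks to genes with GREAT and not by 20 kb flanks, counts Ets2 among the genes repressed by Runx3 in IL-2-activated NKC. It also reports Ets1, Etv3 and Etv6 as repressed and Fli1 and Gabpa as enhanced by Runx3 in these cells. Each of those genes had a Runx3 peak here. Among the genes described above, it names Elf1 as repressed by Runx3 in resting NKC, a state that these peak lists do not cover. Elk3 thus had about as many H3K4me1 peaks as Ets1, which held 3 Runx3 peaks, all of them overlapping H3K4me1.

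**Figure D4:**
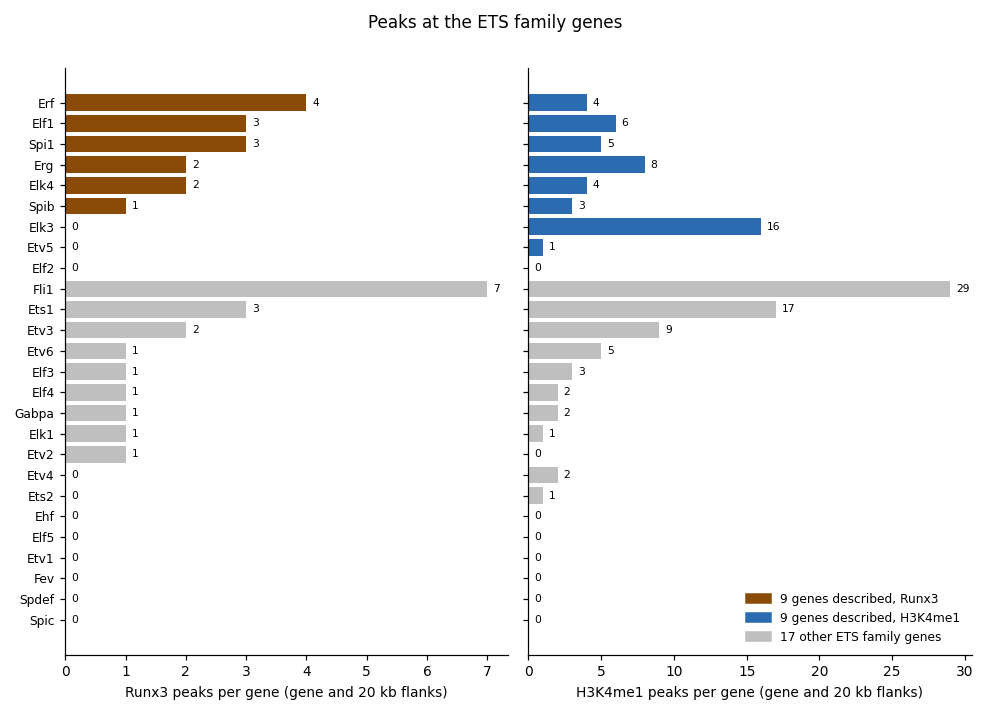
Number of Runx3 peaks (left) and H3K4me1 peaks (right) in each ETS family gene and its 20 kb flanks; coloured bars are the 9 genes described and grey bars the 17 others. Elk3 has 16 H3K4me1 peaks and 0 Runx3 peaks, whereas Fli1, with 29 H3K4me1 peaks, has 7 Runx3 peaks.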

How the data were processed

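ChIP-seq was done on splenic NKC cultured with IL-2. Reads of 40 bp were placed on mm9 by the authors with ELAND, and only unique alignments were used. Peaks came from MACS 1.4 with NIS as control, with both Runx3 libraries joined and the larger set scaled down. The deposited lists give peak positions alone, so neither depth nor peak strength can be read from them, and starts, counted from 0, are given from 1.

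Peaks were matched to GENCODE M1 genes, of which 8 members were found by symbol and 1, Spi1, by its synonym Sfpi1 in the RefSeq table. Start sites nearest to a peak are those of all transcripts of protein-coding genes. Sequence was read from NCBIM37, the same build as mm9. Results are descriptions without a test, and some genes of the marker and partner lists are not reported here. Every member is named, with other ETS genes named for most or no Runx3 peaks or because the study reports on them. The members and lists were chosen with earlier results of these data known. The classes by H3K4me1 count were set after the counts were seen. Overlap, joining and motif steps were tested on simulated data. The versions were python 3.11.15, numpy 2.4.6, scipy 1.17.1 and matplotlib 3.10.9.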

Additional observations from a re-analysis of the deposited data

How the results depend on the processing

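No paired analysis was possible because the peaks of the Runx3 libraries were called on joined reads, so that no value exists per library, and leaving out a library was not possible for the same reason. The number of the 9 genes with a Runx3 peak was 6 as reported and ranged from 4 to 8 over the alternatives tried, 5 with 5 kb flanks, 4 in the gene alone and 8 with 50 kb flanks. With the domains of GREAT, the tool the study used to assign peaks to genes, it was also 6, but for different genes. Elk3 (6 peaks) and Etv5 (3) had Runx3 peaks in their domains and Erf and Spib had none. The share of all protein-coding genes was not counted under these alternatives. Their values therefore cannot be set against the 41.1% found with 20 kb flanks.

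Of 38 alternative values for the whole list, 18 stayed within 1.5 times the reported value. With 50 kb flanks there were 28 Runx3 peaks, 12 of them overlapping H3K4me1, 27 with a RUNX match and 26 with an ETS match, and 87 H3K4me1 peaks. In the genes alone there were 9 Runx3 peaks, 3 overlapping H3K4me1, 8 with a RUNX and 8 with an ETS match. With 5 kb flanks 3 overlapped H3K4me1, 9 had a RUNX and 9 an ETS match. Only peaks at least as wide as the median of their list, in place of a stricter threshold that lists without scores do not allow, gave 8 Runx3 peaks, 3 overlapping H3K4me1, 8 with a RUNX and 7 with an ETS match, and 25 H3K4me1 peaks. Counting Runx3 peaks only where the nearest start site is the member's gave 8. ETS matches were found in 8 of the 15 in the central 200 bp and in 5 as CGGAAG alone. With 50 kb flanks Elk3, Etv5 and Spib had 2 Runx3 peaks each, Spi1 5 and Erf 9, and Elf2 had 0 under every alternative. In the gene alone Erf and Spib had 0, and with 5 kb flanks Erf had 1 and Spib 0. With wide peaks only, Erg had 0 and Elf1 and Spi1 1 each.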

Other observations

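Of 8 genes that act with these ETS factors, counted by the same rule, 6 had a Runx3 peak and all 8 an H3K4me1 peak. Over all protein-coding genes these shares were 41.1% and 51.1%. Irf8, the partner of PU.1 at composite sites, had 3 Runx3 peaks, all overlapping H3K4me1, among 29 H3K4me1 peaks. Cic, a repressor that shares its flank with Erf, had 3 among 7, and the Runx3 peaks at its start are those already counted at Erf. Srf, the partner of Elk3 and Elk4, and Mapk3, a kinase of the pathway that acts on Elk3, Elk4 and Erf, had no Runx3 peak, with 3 and 5 H3K4me1 peaks. Irf4, Ep300 and Crebbp had 1 or 2 Runx3 peaks each.

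The other genes with at least 16 H3K4me1 peaks and no Runx3 peak, looked up after the result for Elk3 was seen, were Srebf1 with 20 and Vav3 and Actn4 with 16 each. The window of Srebf1 was 63.5 kb long and that of Vav3 385 kb, against 104 kb for Elk3.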
